A study of Homo sapiens with 18 samples.

Results

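The quantity described here is a difference of guide effects in KNS-42, a cell line from a paediatric glioma that was made to express the Cas9 nuclease. The guide effect is the level under guide RNA 395, directed at the cell's own DDX3X gene, minus the level under a guide against AAVS1, a safe-harbour site that served as the negative control. This effect in cells that overexpressed a codon-optimised DDX3Y (DDX3Yoe) was compared with the effect in cells labelled parental, without overexpression. A value above 0 means that guide 395 lowered the gene less, or raised it more, in DDX3Yoe cells than in parental cells, and a value below 0 means the opposite. The comparison used 12 of the 18 libraries of the series, 3 replicates in each of 4 groups: parental AAVS1, parental 395, DDX3Yoe AAVS1 and DDX3Yoe 395. All cells of these groups expressed Cas9, were grown with puromycin and were harvested on day 7 after lentiviral delivery of the guide. The labels do not say whether a line is 1 clone, which promoter drives the transgene, or whether the replicates are separate cultures. The p-values therefore reflect only how much these libraries vary, which may in part be technical.

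DDX3X encodes a DEAD-box RNA helicase that unwinds RNA during the start of translation and takes part in signalling after the sensing of viral RNA. DDX3Y, on the Y chromosome, encodes a closely related helicase, and many cell types can live on either of them. A rescue experiment of this kind asks which of the transcriptional changes that follow loss of the X copy are smaller when the Y copy is supplied, and the difference of the guide effects measures that gene by gene.

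The 12 libraries were made with a method that reads the 3′ ends of polyadenylated transcripts, and reads on genes ranged from 6.88 M to 13.2 M per library (M, 1e6; median 8.7 M). Values below are the authors' normalised reads, and a difference is on the log2(value + 1) scale, on which genes with few reads appear to change less than they do. Markers of glial and neural progenitors, among them VIM, SOX2 and NES, summed to between 48865 and 87651 normalised reads per library over a list of 16 genes, of which 2, S100B and OLIG2, were at 0 in all 12. The members were unequal in this sum. VIM stood at 11361 to 44149 and SOX2 at 8999 to 28885, but NES at only 151 to 1184. The summed level of 10 immune cell markers was between 19.4 and 187 normalised reads, that of 6 endothelial markers between 14.7 and 57.5, and that of 6 epithelial markers between 11.2 and 40.7. Among the 12 libraries, DDX3Yoe AAVS1 replicate 2 stood apart, at low values, in the interferon-related lists.

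DDX3X (ENSG00000215301, chromosome X, 41333284 to 41364472, plus strand, GRCh38) was checked first in every library. In parental cells it stood at 1780, 1923 and 1729 normalised reads under AAVS1 and at 861, 844 and 953 under guide 395. In DDX3Yoe cells the corresponding values were 1379, 1557 and 1439 under AAVS1 and 878, 739 and 653 under guide 395. The 2 guides did not overlap in either line, and all 12 libraries matched their guide label. DDX3X fell in parental cells by 1.03 on the log2 scale (SE 0.19, 3 libraries a group, limma adjusted p = 0.0145). Its effect in DDX3Yoe cells was -0.95 (limma adjusted p = 1.00, unadjusted p = 0.000171). The difference of the guide effects for DDX3X was 0.08 (SE 0.27, 95% interval -0.50 to 0.65, limma adjusted p = 0.991), so the target transcript itself gave no detectable difference, within an interval of that width. DDX3Y had 0 reads in all 12 libraries, which allows at most 0.436 CPM (reads per 1e6 reads) in the shallowest of them. The endogenous gene model therefore holds no check of the codon-optimised transgene, whose level was not analysed here.

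No gene passed the test of the difference. Of 14726 genes tested, limma called 0 at an adjusted p under 0.05 (0%), and the smallest adjusted p was 0.445, for KCNMB3, a potassium channel subunit. At an unadjusted p under 0.05 there were 936 genes (6.36%), 407 above 0 (2.76%) and 529 below (3.59%). The edgeR quasi-likelihood test on the recovered reads called 0 genes as well, with 912 at an unadjusted p under 0.05, and DESeq2 called 15. The half-width of the 95% interval of the difference had a median of 1.07 on the log2 scale over all genes, and 0.87 over genes past the 40th percentile of mean level. A gene with the median half-width would need a difference above 1.07 for its interval to leave 0, before any adjustment over genes.

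The guide effects that enter the difference were of unequal size. In parental cells limma called 474 genes (3.22%), of which 270 rose (1.83%) and 204 fell (1.39%). In DDX3Yoe cells limma called 0 genes (0%), with 222 at an unadjusted p under 0.05. There edgeR also called 0 genes, and DESeq2 called 1, DDX3X, with a log2 change of -0.94 and an adjusted p of 0.0152. Between the lines under the AAVS1 guide limma called 0 genes (0%), with 525 genes at a raw p below 0.05. The count models, edgeR and DESeq2, called 0 too. The SD of the guide effect across genes was 0.76 in parental cells and 0.42 in DDX3Yoe cells. Across the 14726 genes the parental and DDX3Yoe effects, which share no library, had a Pearson r of 0.34 and a Spearman rho of 0.35, given as a description since genes are not independent replicates. In bulk RNA, fewer affected cells and a smaller change per cell cannot be told apart. The parental count depended on single libraries: it was 123, 139 and 110 without parental 395 replicate 1, 2 and 3, 82 without parental AAVS1 replicate 2, 781 without parental AAVS1 replicate 1, and 283 without DDX3Yoe 395 replicate 2. Blocking on the replicate number gave 749, and a block on the number within each line gave 1770, and all 474 genes were among the calls of both.

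**Figure D1:**
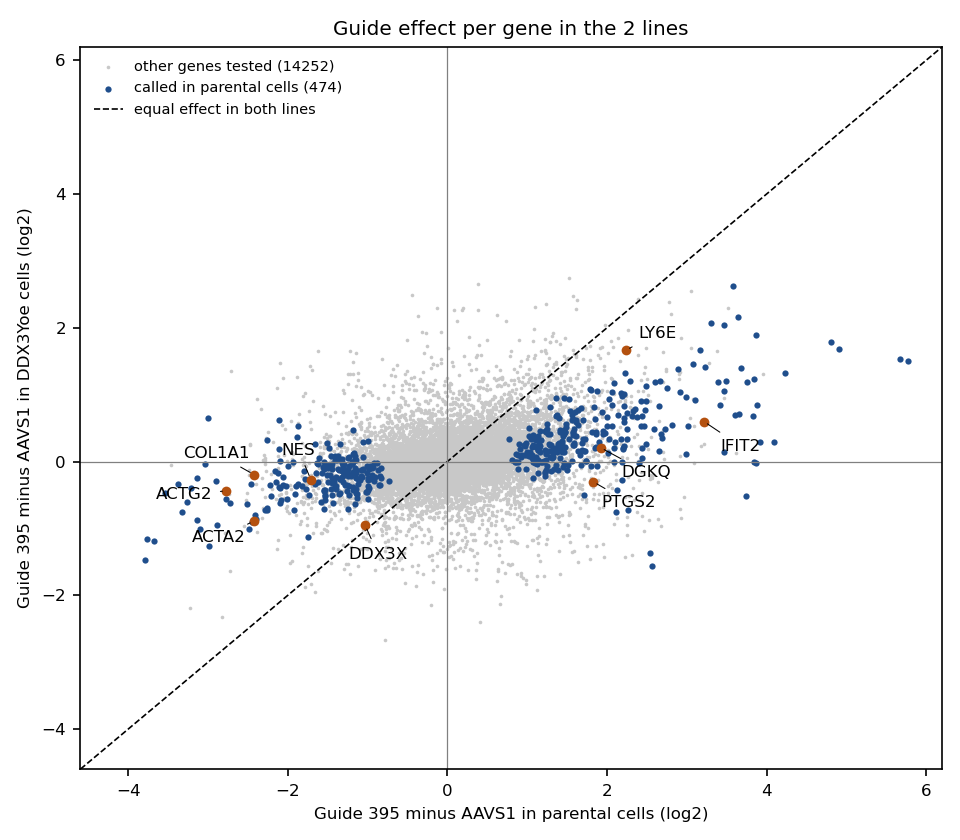
Guide effect per gene (log2, guide 395 minus AAVS1) in parental cells on the x axis and in DDX3Yoe cells on the y axis, for all 14726 genes tested. Blue points are the 474 genes called in parental cells by limma, orange points are named genes, and the dashed line marks equal effects. The blue points lie between that line and the horizontal axis or beyond the axis, and DDX3X lies next to the line.

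The 4 groups were then compared library by library, by counting genes for which the 3 libraries of 1 group lay all above or all below the other 9. Parental 395 lay apart in this way in 1584 genes, 918 above (6.23%) and 666 below (4.52%). DDX3Yoe 395 lay apart in 62 genes, DDX3Yoe AAVS1 in 130 and parental AAVS1 in 121. None of the genes in these counts was called in the test of the difference (0%). These counts describe the libraries and were not tested.

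Genes called in parental cells were followed into the DDX3Yoe libraries, which had no part in that call beyond sharing the estimate of the spread. Of the 270 genes that rose in parental cells, 227 (84.1%) had an effect above 0 in DDX3Yoe cells, against 49.6% of all genes tested. Their median effect was 1.61 in parental cells and 0.33 in DDX3Yoe cells. Of the 204 that fell, 175 (85.8%) had an effect below 0 in DDX3Yoe cells, against 50.4% of all genes, and their median effect was -1.41 and -0.25 in the 2 lines. In DDX3Yoe cells 37 of the 270 and 9 of the 204 reached an unadjusted p under 0.05 in the parental direction. Of all genes tested, 0.964% did so above 0 and 0.543% below 0. None of the 474 had an effect of the same sign and at least the same size in DDX3Yoe cells. These genes were chosen for large parental values, so no test of the smaller median in the other line is given.

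The ratio of the DDX3Yoe effect to the parental effect had a median of 0.19 over the 474 genes. It was at least 0.5 in 24 genes, between 0 and 0.5 in 379 and below 0 in 71. DDX3X had the highest ratio of all 474, 0.93. The next were chosen after their values were seen. They were LY6E, an interferon-induced membrane protein, with a ratio of 0.74, IFITM1, an interferon-induced inhibitor of viral entry, with 0.73, MOB3C, of the MOB family, with 0.71, and BTN3A2, a butyrophilin, with 0.70. HLA-C, a class I antigen-presenting molecule, followed with 0.65, and IFI27, another interferon-stimulated gene, had 0.63. For LY6E the log2 effect was 2.24 in parental and 1.66 in DDX3Yoe cells, a difference of -0.57 (SE 0.56). For IFITM1 the effects were 3.58 and 2.62, a difference of -0.96 (SE 1.17). The median interferon-stimulated gene stood low in DDX3Yoe AAVS1 replicate 2, at -1.59 (log2) relative to the mean of parental AAVS1. In replicates 1 and 3 of that group it stood at 0.48 and 0.16. The ratios were not recomputed without replicate 2, so how far they rest on that library was not tested.

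The 10 genes with the smallest p among those with a difference above 0 and the 10 among those below 0 were named by rule, from genes above the 40th percentile of expression. None passed the adjustment, and their limma adjusted p lay between 0.599 and 0.654. All 20 were called in parental cells, which is no separate support because the parental effect is part of the difference. For all 20, the 3 parental 395 libraries lay beyond all other 9 libraries, as in 10.8% of all genes tested. The choice by p from these same libraries favours such genes, so this is no separate support either.

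Among the genes above 0, 4 of the first belong to the actin cytoskeleton and the extracellular matrix. ACTG2, the gamma actin of smooth muscle (chromosome 2, 73892314 to 73919865), stood at 291, 362 and 418 normalised reads in parental AAVS1 and at 31.6, 46.2 and 89.7 in parental 395. In DDX3Yoe cells it stood at 278, 231 and 269 under AAVS1 and at 266, 165 and 157 under guide 395. Parental 395 was thus low by itself, while the DDX3Yoe groups overlapped. Its effect was -2.77 in parental cells, where it fell (limma adjusted p = 0.00195), and -0.44 in DDX3Yoe cells, and the difference was 2.33 (SE 0.49, 95% interval 1.28 to 3.38, limma adjusted p = 0.599).

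COL1A1, the alpha 1 chain of type I collagen (chromosome 17, 50183289 to 50201632), had 342, 217 and 303 normalised reads in parental AAVS1 and 48.4, 48.2 and 59.4 in parental 395. It had 399, 184 and 239 in DDX3Yoe AAVS1 and 344, 198 and 173 in DDX3Yoe 395, so the guides overlapped there. The difference was 2.23 (SE 0.47, limma adjusted p = 0.599). TMOD1, which caps the pointed ends of actin filaments (chromosome 9, 97501180 to 97601748), had 500, 440 and 402 in parental AAVS1, 113, 78.7 and 96.0 in parental 395, 255, 381 and 377 in DDX3Yoe AAVS1, and 182, 239 and 286 in DDX3Yoe 395. Its difference was 1.70 (SE 0.37, limma adjusted p = 0.599), and its DDX3Yoe groups overlapped too.

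ACTA2, the alpha actin of smooth muscle (chromosome 10, 88935074 to 88991339), behaved otherwise in DDX3Yoe cells. It had 920, 1395 and 1005 normalised reads in parental AAVS1 and 180, 243 and 188 in parental 395. In DDX3Yoe cells it had 1011, 841 and 919 under AAVS1 and 632, 397 and 485 under guide 395. Here the guides did not overlap in either line, and the effects were -2.43 in parental cells and -0.89 in DDX3Yoe cells, a difference of 1.53 (SE 0.34, limma adjusted p = 0.599). The actin genes are near-identical in their coding parts, so how the authors' counting treated reads shared between them could alter these values.

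The other genes above 0 had more varied roles. NES, which encodes the intermediate filament nestin of neural progenitors (chromosome 1, 156668763 to 156677397), had 599, 804 and 645 normalised reads in parental AAVS1 and 151, 214 and 269 in parental 395. It had 1054, 996 and 1167 in DDX3Yoe AAVS1 and 1184, 698 and 847 in DDX3Yoe 395. All 6 DDX3Yoe libraries thus lay above parental 395, the difference was 1.44 (SE 0.36, limma adjusted p = 0.654), and under AAVS1 the DDX3Yoe level exceeded the parental one by 0.66 on the log2 scale (limma adjusted p = 0.961). NTRK3, the receptor of neurotrophin-3, had a difference of 1.21, with 130 to 157 normalised reads in parental 395 and 238 to 439 in the other 9 libraries. BAALC, a gene of neural tissue, had 1.42, and PLPPR4, a brain phospholipid phosphatase-related protein, 1.95. ANAPC15, a subunit of the anaphase-promoting complex, had 1.66.

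GCDH, a mitochondrial dehydrogenase of lysine breakdown, was the 1 gene of these 10 whose effect lay above 0 in DDX3Yoe cells. It had 261, 590 and 361 normalised reads in parental AAVS1, 149, 186 and 171 in parental 395, 233, 297 and 232 in DDX3Yoe AAVS1, and 438, 331 and 293 in DDX3Yoe 395. The effects were -1.18 and 0.47, and the difference was 1.65 (SE 0.41, limma adjusted p = 0.654). Its DDX3Yoe groups overlapped by 1 library.

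**Figure D2:**
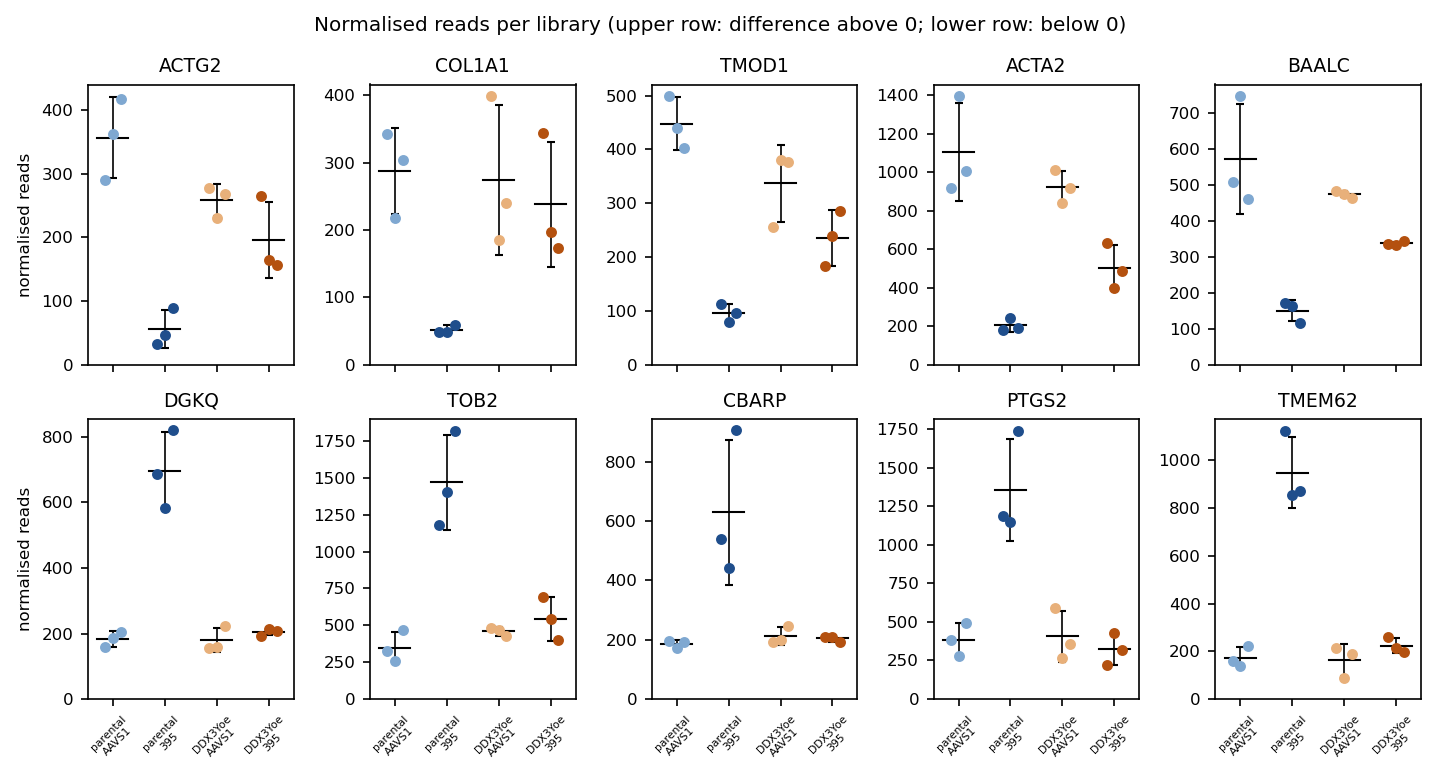
Normalised reads per library (y axis, from 0) in the 4 groups (x axis) for the 5 genes with the smallest p above 0 (upper row) and below 0 (lower row). Points are libraries, the bar is the mean and the whisker the SD of 3 libraries, and in each panel the parental 395 libraries lie apart from the other 9.

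The genes below 0 rose in parental cells. DGKQ, a diacylglycerol kinase (chromosome 4, 958887 to 986895), had 158, 185 and 205 normalised reads in parental AAVS1 and 687, 584 and 821 in parental 395. In DDX3Yoe cells it had 157, 160 and 223 under AAVS1 and 194, 214 and 209 under guide 395. The effect was 1.92 in parental cells and 0.21 in DDX3Yoe cells, and the difference was -1.71 (SE 0.33, 95% interval -2.42 to -1.0, limma adjusted p = 0.599). Its 3 groups other than parental 395 overlapped throughout.

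TOB2, an antiproliferative protein of the BTG/TOB family (chromosome 22, 41433492 to 41447023), had 326, 256 and 467 normalised reads in parental AAVS1, 1180, 1408 and 1821 in parental 395, 483, 467 and 428 in DDX3Yoe AAVS1, and 691, 540 and 398 in DDX3Yoe 395. Its difference was -1.88 (SE 0.38, limma adjusted p = 0.599). CBARP, a regulator of voltage-gated calcium channels (chromosome 19, 1228287 to 1238027), had 538, 442 and 907 in parental 395 and between 172 and 247 in the other 9 libraries, a difference of -1.73 (SE 0.37). In DDX3Yoe cells its groups overlapped, at 193 to 247 under AAVS1 and 191 to 211 under guide 395.

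PTGS2, the inducible cyclooxygenase that makes prostaglandins in inflammation (chromosome 1, 186671791 to 186680427), had 383, 278 and 493 normalised reads in parental AAVS1 and 1184, 1149 and 1740 in parental 395. It had 593, 268 and 358 in DDX3Yoe AAVS1 and 221, 430 and 318 in DDX3Yoe 395. The effect was 1.83 in parental cells and -0.30 in DDX3Yoe cells, and the difference was -2.13 (SE 0.47, limma adjusted p = 0.599). VGF, the precursor of secreted neuropeptides, had a difference of -2.45 (SE 0.60), and ASPHD2, an aspartate beta-hydroxylase domain protein, -2.43 (SE 0.59). DMRTA2, a transcription factor of the developing forebrain, had -1.51, and CDR2L -1.32. TMEM62 and ZSCAN29, which lie on chromosome 15 at 43123279 to 43185146 and 43358172 to 43371025, had -1.92 and -1.89. Both stood apart in parental 395, TMEM62 at 855 to 1122 normalised reads against 89.0 to 258 elsewhere, and ZSCAN29 at 208 to 357 against 57.7 to 129.

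**Figure D3:**
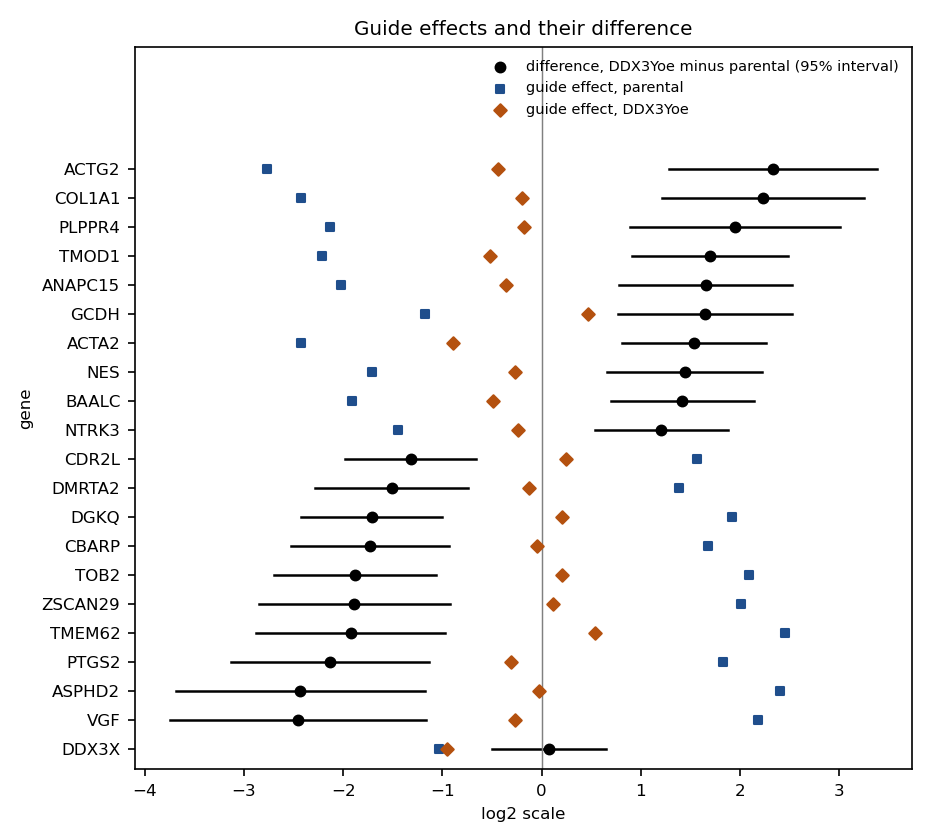
Difference of the guide effects (black points, with 95% intervals from the limma fit, not adjusted over genes) for the 20 named genes and DDX3X, with the parental effect as a blue square and the DDX3Yoe effect as an orange diamond, all on the log2 scale. The DDX3Yoe effects lie between -0.89 and 0.53 for the 20 genes, and for DDX3X both effects lie near -1 with a difference of 0.08.

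DESeq2, run on the recovered reads, called 15 genes in the difference, 5 above 0 and 10 below, with adjusted p between 7.19e-05 and 0.0486. Of the 20 genes above, ACTG2, COL1A1, TMOD1, ACTA2, DGKQ, TOB2, CBARP, PTGS2, TMEM62 and ZSCAN29 were among them. The others were KCNMB3, MYO16, an unconventional myosin, CMPK2, a mitochondrial nucleotide kinase induced by interferon, LRRFIP1P1, a pseudogene, and the antisense RNA JAKMIP2-AS1. In limma the last 5 had a difference of -3.32, -4.13, -3.02, -3.00 and 3.07 in that order, none of them called.

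Interferon-stimulated genes are switched on when cells sense interferon or foreign nucleic acid. Of 55 tested members of the list, 54 had an effect above 0 in parental cells, with a median of 1.49. Limma called 15 of them as risen there and 0 as fallen (1.83% and 1.39% of all genes). The median effect in DDX3Yoe cells was 1.06, with 53 of 55 above 0. The difference had a median of -0.50, with 41 members below 0 and 14 above, against a median of 0.002 over all genes. None of the members was called in the difference by limma. An unadjusted p under 0.05 was reached by 6 below 0 and 1 above, against 3.59% and 2.76% of all genes. Relative to the mean of parental AAVS1, the median member stood at 1.56, 1.43 and 1.54 in parental 395 and at 0.71, 0.92 and 0.35 in DDX3Yoe 395. Under AAVS1 it stood at -0.33, -0.47 and 0.69 in parental cells and at 0.48, -1.59 and 0.16 in DDX3Yoe cells.

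DDX3Yoe AAVS1 replicate 2 was thus the lowest of the 12 for this list. Without it the median difference was -1.14, and without DDX3Yoe AAVS1 replicate 1 it was -0.07. With all replicate 1 libraries left out it was 0.05, and with library quality weights 0.14, so the direction of the median for this list turned with the libraries used. In 29 of the 55 members parental 395 lay above the other 9 libraries, against 6.23% of all genes.

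IFIT2, which binds RNA and restrains translation of foreign messages, had 1342, 976 and 4006 normalised reads in parental AAVS1 and 15661, 13057 and 20615 in parental 395. It had 3150, 852 and 2670 in DDX3Yoe AAVS1 and 3259, 3817 and 2001 in DDX3Yoe 395, so the DDX3Yoe groups overlapped. The difference was -2.62 (SE 0.73, limma adjusted p = 0.667). RTP4, a chaperone of receptor transport induced by interferon, had a difference of -2.61 (SE 0.91), CXCL11, a chemokine, -3.89 (SE 1.40), and CMPK2 -3.02 (SE 1.13). Without DDX3Yoe AAVS1 replicate 2 these 4 differences were -3.21, -3.42, -4.72 and -4.16, in the order named. Other alternatives brought them nearer 0. Over all alternatives they ranged from -3.40 to -1.67, -3.74 to -1.30, -5.15 to -1.86 and -4.22 to -1.79, in the same order. RTP4 still had a DDX3Yoe effect of 1.24, at 24.9, 3.87 and 26.0 under AAVS1 and 23.3, 52.1 and 33.7 under guide 395, where the lowest of the 6 was DDX3Yoe AAVS1 replicate 2.

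Genes of antigen presentation by class I molecules followed. Of 19 tested members 9 rose in parental cells (1.83% of all genes did), the median effect was 1.46 in parental and 0.75 in DDX3Yoe cells, and all 19 lay above 0 in both. The difference had a median of -0.58, with 18 below 0 and 1 above. Limma called 0, and 3 reached an unadjusted p under 0.05, all below 0 (3.59% of all genes did). HLA-E, a non-classical class I molecule, had 1566, 1911 and 2773 normalised reads in parental AAVS1, 12278, 9357 and 12695 in parental 395, 1800, 906 and 2011 in DDX3Yoe AAVS1, and 2576, 4060 and 2065 in DDX3Yoe 395. Its guides did not overlap in either line, and the difference was -1.58 (SE 0.47, limma adjusted p = 0.667). HLA-B had -1.50, and reads shared among class I genes make these values uncertain. Leaving out 1 library at a time moved the median of the list between -0.87, without parental AAVS1 replicate 3, and -0.38, without DDX3Yoe AAVS1 replicate 1. Without DDX3Yoe AAVS1 replicate 2 it was -0.86, without both DDX3Yoe libraries of replicate 2 -1.15, and with library quality weights -0.06. Without that replicate 2 library, at 906 for HLA-E and 1497 for HLA-B, the differences of HLA-E and HLA-B were -1.94 and -1.92. Over all alternatives these differences ranged from -2.30 to -0.90 for HLA-E and from -2.42 to -0.46 for HLA-B.

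Nucleic acid sensors and their adaptors had a median difference of -0.36, with 13 of 15 below 0, and it was -0.73 without DDX3Yoe AAVS1 replicate 2 and -0.02 with library quality weights. ZBP1, a sensor of Z-form nucleic acid, had 1.34, 2.48 and 0 normalised reads in parental AAVS1 and 147, 81.7 and 88.7 in parental 395. It had 1.92, 1.29 and 0 in DDX3Yoe AAVS1 and 3.88, 9.77 and 2.1 in DDX3Yoe 395. ZBP1 was therefore near the detection limit in 9 of the 12 libraries, and its fitted difference of -4.14 (SE 1.05) depends on the added 1. IFIH1, the RNA sensor MDA5, had 517, 371 and 1378 in parental AAVS1, 2772, 3013 and 2971 in parental 395, 1448, 271 and 848 in DDX3Yoe AAVS1, and 1515, 1963 and 866 in DDX3Yoe 395, a difference of -1.20 (SE 0.76), or -1.88 without DDX3Yoe AAVS1 replicate 2. Over all alternatives the IFIH1 difference ranged from -2.13 to -0.36. Among STAT, IRF and receptor genes the median was -0.15, which turned to 0.02 without DDX3Yoe 395 replicate 1 and to 0.04 without DDX3Yoe AAVS1 replicate 1, and was -0.22 without DDX3Yoe AAVS1 replicate 2. JAK2, a kinase that carries cytokine signals, had -1.51 (SE 0.40, limma adjusted p = 0.654), with 544 to 739 normalised reads in parental 395 and 128 to 234 in the other libraries.

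NF-kB is a transcription factor of inflammation and cell survival, and the genes of its pathway lay on 1 side of 0. All 18 tested members had a difference below 0, with a median of -1.06. Limma called 0, and 7 reached an unadjusted p under 0.05 (3.59% of all genes did so below 0). The median effect was 1.14 in parental cells, where 3 members rose (PTGS2, SOD2 and NFKBIZ; 1.83% of all genes rose), and -0.03 in DDX3Yoe cells, where 7 lay above 0 and 11 below. Per library the median member stood at 1.28, 0.72 and 1.3 in parental 395 and at 0.07, 0.16 and 0.04 in DDX3Yoe 395, against 0.07, -0.50 and 0.37 in parental AAVS1 and 0.29, -0.43 and 0.42 in DDX3Yoe AAVS1. All 3 parental 395 libraries lay above the other 9, as they did for the interferon-stimulated, antigen presentation, sensor, complement and APOL lists. By member this held for 6 of 18 NF-kB genes (33.3%), against 6.23% of all genes. It held for 29 of 55 interferon-stimulated and 11 of 19 antigen presentation genes. The median of the NF-kB list stayed below 0 without any 1 library, between -1.48 and -0.80, and was -0.64 with library quality weights. Members share libraries and are not independent of each other.

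SOD2, the mitochondrial superoxide dismutase, had 1325, 330 and 705 normalised reads in parental AAVS1, 6356, 1555 and 2401 in parental 395, 625, 521 and 476 in DDX3Yoe AAVS1, and 339, 630 and 724 in DDX3Yoe 395. Its difference was -2.09 (SE 0.72, limma adjusted p = 0.730). NFKBIZ, a nuclear regulator of NF-kB target genes, had -1.49 (SE 0.52), and BIRC3, an inhibitor of apoptosis and a target of NF-kB, -1.69 (SE 0.66). BIRC3 was at 552, 281 and 704 in parental 395 but also at 344 in parental AAVS1 replicate 3 and 378 in DDX3Yoe AAVS1 replicate 3, so its groups overlapped.

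Complement and acute phase genes had a median difference of -0.46, with 7 of 10 below 0, or -0.17 without replicate 2. C1R, a protease of the classical complement pathway, rose in parental cells by 2.43 (limma adjusted p = 0.00253), from 534, 391 and 463 normalised reads to 3437, 2395 and 1841. In DDX3Yoe cells it had 426, 294 and 359 under AAVS1 and 524, 1168 and 483 under guide 395, without overlap, and the difference was -1.52 (SE 0.46, limma adjusted p = 0.667). SERPING1, the C1 inhibitor, had a difference of -1.65 (SE 0.57), with 1144 to 1480 in parental 395 and 87.7 to 489 in the other 9 libraries. All 4 tested members of the APOL family, whose best known member lyses trypanosomes, lay below 0, with a median of -1.45. Relative to the mean of parental AAVS1 the median APOL member stood at -0.62, -0.48 and 1.2 in parental AAVS1, at 2.86, 2.04 and 2.63 in parental 395, at 0.67, -1.53 and 0.75 in DDX3Yoe AAVS1 and at 0.78, 1.41 and 0.46 in DDX3Yoe 395. The DDX3Yoe groups overlapped apart from replicate 2 of AAVS1, and without that library the median difference was -2.23.

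**Figure D4:**
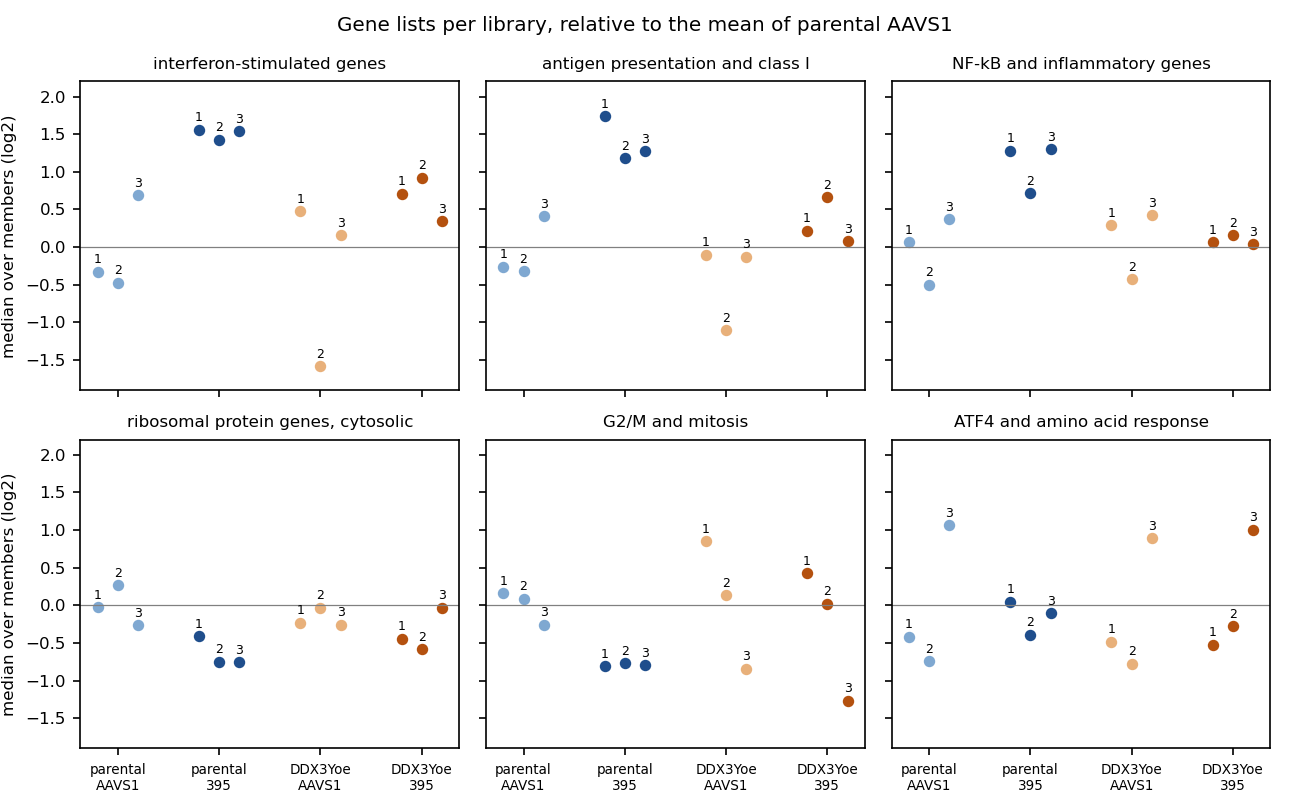
Median over the tested members of 6 gene lists in each library, as log2 relative to the mean of parental AAVS1 (y axis), by group (x axis), with the replicate number above each point. For interferon-stimulated, antigen presentation and NF-kB genes the parental 395 libraries lie above the other 9. DDX3Yoe AAVS1 replicate 2 is the lowest for interferon-stimulated genes, and replicate 3 is high for ATF4 genes in each group but parental 395.

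Contractile and matrix genes, from which ACTG2, COL1A1, TMOD1 and ACTA2 come, were split. Of 35 tested members 10 fell in parental cells (1.39% of all genes did) and 0 rose. In the difference 19 lay above 0 and 16 below, with a median of 0.21. Limma called 0, and 9 reached an unadjusted p under 0.05, all above 0 (2.76% of all genes did). The 9 include TAGLN, the actin-binding transgelin, with 1.59, TPM1, a tropomyosin, with 1.08, and MYL9, a myosin light chain, with 1.05. FN1, fibronectin, lay on the other side with -0.70. The median of the list was -0.03 without both DDX3Yoe libraries of replicate 3.

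Lists of growth and housekeeping genes had positive medians, and limma called 0 of their members in the difference. Cytosolic ribosomal protein genes had a median difference of 0.50, with 75 of 84 members above 0. An unadjusted p under 0.05 was reached by 3 of the 84, all above 0, near the 2.76% of all genes. Leaving out 1 library moved the median between 0.34 and 0.65. The median guide effect was -0.65 in parental cells, with 77 of 84 below 0, and -0.18 in DDX3Yoe cells, with 68 below 0. In parental cells 3 members were called as fallen (1.39% of all genes were). Under AAVS1 the DDX3Yoe level lay below the parental one in 63 members, with a median of -0.16. RPL9, of the large subunit, had 187, 334 and 242 normalised reads in parental AAVS1, 63.3, 112 and 102 in parental 395, 199, 266 and 262 in DDX3Yoe AAVS1, and 228, 198 and 241 in DDX3Yoe 395, a difference of 1.33 (SE 0.41, limma adjusted p = 0.667). Its DDX3Yoe groups overlapped. Ribosomal protein genes have many pseudogene copies that can share reads. Nuclear genes of oxidative phosphorylation had a median of 0.30, with 71 of 79 above 0. The 13 mitochondrially encoded genes had 0.37, with 13 above 0, and -0.04 with library quality weights. Proteasome genes had 0.33, with 28 of 31 above 0. Median guide effects of these lists were -0.47, -0.52 and -0.40 in parental cells and -0.12, -0.25 and -0.10 in DDX3Yoe cells. Under AAVS1 the DDX3Yoe level lay below the parental one in 68 of 79, 11 of 13 and 25 of 31 members, which is part of these differences. Under guide 395 oxidative phosphorylation genes stood at -0.59 to -0.31 in parental and -0.37 to -0.33 in DDX3Yoe cells, with overlap. The mitochondrial share of reads was 7.78 to 11.1% in parental 395, 11.3 to 16.5% in parental AAVS1, 10.5 to 14.2% in DDX3Yoe 395 and 11.3 to 13.8% in DDX3Yoe AAVS1, and its part in the other differences was not tested.

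Genes of mitosis had a median difference of 0.36, with 39 of 45 above 0 and none at an unadjusted p under 0.05 (6.36% of all genes). Their median effect was -0.82 in parental cells, with 42 of 45 below 0, and -0.43 in DDX3Yoe cells, with 41 below 0. TOP2A, the DNA topoisomerase of dividing cells, had 5973, 9777 and 4882 normalised reads in parental AAVS1, 979, 2127 and 2149 in parental 395, 11875, 8106 and 3347 in DDX3Yoe AAVS1, and 11093, 5336 and 1732 in DDX3Yoe 395. The spread inside the DDX3Yoe groups was larger than the gap between them, and the difference was 1.45 (SE 0.83). Without DDX3Yoe AAVS1 replicate 3 the median of the list was -0.06, and without DDX3Yoe 395 replicate 3 it was 0.94. Genes of DNA replication had a median of 0.27, which was -0.13 and 0.65 without the same libraries in that order and -0.07 without DDX3Yoe 395 replicate 1. Their median guide effects were -0.37 in parental cells and -0.13 in DDX3Yoe cells.

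Targets of ATF4, the transcription factor of the amino acid response, had a median difference of 0.28, with 16 of 23 above 0. Their libraries split by replicate number: replicate 3 stood at 1.06 in parental AAVS1, 0.90 in DDX3Yoe AAVS1 and 1.01 in DDX3Yoe 395, but at -0.10 in parental 395, while the other replicates lay between -0.78 and 0.05. The median was -0.20 without replicate 3, -0.24 without DDX3Yoe 395 replicate 3, -0.18 without parental AAVS1 replicate 3, -0.02 and -0.09 without DDX3Yoe AAVS1 replicate 1 and 2, and 0.92 without DDX3Yoe AAVS1 replicate 3. PHGDH, the first enzyme of serine synthesis, showed the same split, with 2223, 2601 and 2357 normalised reads in replicate 3 of parental AAVS1, DDX3Yoe AAVS1 and DDX3Yoe 395 and 405 in that of parental 395. Its difference was 1.63 (SE 0.67, limma adjusted p = 0.762).

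Genes of cholesterol synthesis had a median of 0.32, with 16 of 22 above 0, which was 0.04 without both parental libraries of replicate 2. Translation factors had 0.14, with 26 of 39 above 0, and -0.002 without replicate 3. The median effects in parental and DDX3Yoe cells were -0.49 and -0.15 for cholesterol genes and -0.22 and -0.07 for translation factors. Glial and neural progenitor markers had a median difference of 0.32, with 9 of 12 above 0, and 0.05 without parental AAVS1 replicate 1. Of these markers SOX2, a transcription factor of neural stem cells, had 16149, 25062 and 16307 normalised reads in parental AAVS1, 8999, 15932 and 12877 in parental 395, 18533, 20330 and 15284 in DDX3Yoe AAVS1, and 28885, 24904 and 16983 in DDX3Yoe 395. Its difference was 0.97 (SE 0.45, limma adjusted p = 0.783). The SOX2 guides did not overlap in parental cells and overlapped in DDX3Yoe cells.

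In 4 further lists the median changed sign among the alternatives. DEAD-box and DEAH-box helicases, the family of the target, had a median of 0.08, with 23 of 43 above 0 and 0 called (-0.07 to 0.14 over the alternatives). The X-linked members of X-Y gene pairs had a median of 0.03, with 5 of 10 above 0, and ranged from -0.22 to 0.17. Heat shock chaperones had 0.03, ranging from -0.20 to 0.19. Genes of the unfolded protein response had -0.01, ranging from -0.56 without replicate 3 to 0.40 without DDX3Yoe AAVS1 replicate 3. Targets of p53 and apoptosis genes kept 1 sign, at -0.18, with 21 of 27 below 0 (-0.40 to -0.03 over the alternatives), among them TNFSF10, the death ligand TRAIL, with -1.63 (SE 0.65, limma adjusted p = 0.752).

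Promoter sequence was read for the interferon, antigen presentation, NF-kB and contractile lists for the 20 genes with the smallest p and for IFIH1, from RefSeq windows of 250 bases before to 50 after each start (GRCh38.p14). The core of the interferon-stimulated response element, GAAA and GAAA with NN between them on either strand, was present in 33 of 45 interferon-stimulated genes with a window (73.3%) and in 10 of 15 antigen presentation genes (66.7%), against 4.38% of 27305 genes. The NF-kB consensus was present in 8 of 14 genes of the NF-kB list (57.1%), against 13.3% of genes. The CArG box, the site of serum response factor, was present in 2 of 26 contractile and matrix genes (7.69%), against 1.60% of genes. The NF-kB consensus was also present in 7 of 15 antigen presentation genes (46.7%), 7 of 26 contractile and matrix genes (26.9%) and 8 of 45 interferon-stimulated genes (17.8%). The interferon element core was in 2 of 14 NF-kB genes and 2 of 26 contractile genes, and the CArG box in 3 of 45 interferon-stimulated genes and in 0 genes of the NF-kB and antigen presentation lists. Of the named genes with the smallest p, 3 of 8 with a window below 0 held an NF-kB consensus and none another motif. Of 8 above 0, each of the 3 motifs was found in 1. A match describes the letters only. The motifs can overlap each other, and the lists were in part defined by such regulation.

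A promoter each from the NF-kB, sensor and contractile lists is shown, 5′ to 3′ on the gene's strand, upstream of the RefSeq start, with motif matches in capitals. BIRC3 holds 1 NF-kB match (chr11:102317334-102317459, plus strand), IFIH1 an NF-kB match and then an interferon element core (chr2:162318685-162318834, minus strand), and ACTG2 a pair of CArG boxes (chr2:73892858-73892953, plus strand).
BIRC3: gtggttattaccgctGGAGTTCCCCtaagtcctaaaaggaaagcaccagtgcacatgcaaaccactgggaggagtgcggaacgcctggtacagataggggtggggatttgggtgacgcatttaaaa
IFIH1: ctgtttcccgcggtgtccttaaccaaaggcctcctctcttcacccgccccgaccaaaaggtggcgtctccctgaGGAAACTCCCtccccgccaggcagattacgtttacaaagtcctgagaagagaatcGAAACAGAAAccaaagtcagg
ACTG2: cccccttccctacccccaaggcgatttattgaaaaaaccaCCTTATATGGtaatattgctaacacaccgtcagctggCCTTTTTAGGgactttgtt
The difference of the guide effects was -1.69 for BIRC3, -1.20 for IFIH1 and 2.33 for ACTG2, none of them called by limma.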

How the data were processed

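The 12 libraries were made from total RNA with a 3′ end kit, per the labels' protocols. The deposited values are a normalised signal for 58050 genes: the authors scaled each library's gene counts by a single size factor, which the values show, since whole reads were recovered for 100% of values within a tolerance of 0.01. Per the submitters' processing notes, featureCounts 1.5.1, STAR 2.5.2b, limma and RSEM 1.3.0 were used in roles not stated, with GRCh38. Neither strand setting nor guide sequences are given in the sources used here, so a gene and its antisense or overlapping partner cannot be told apart. Of the identifiers, 57446 were in GENCODE 29, the source of positions. Genes at 10 or more in at least 3 of the 12 libraries were kept, and log2(value + 1) was fitted with limma 3.58.1 in R 4.3.3 as 4 group means with an intensity trend and 8 residual degrees of freedom. The call threshold was a Benjamini-Hochberg adjusted p of 0.05. The 6 DDX3Xoe libraries entered as an alternative only, because some of them went against their guide labels in earlier results of these data. The scripts were tested on simulated data.

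No replicate pair agreed within sampling noise. Deviations of same-numbered libraries from their group means correlated at 0.58, 0.21 and 0.29 in parental cells and at 0.07, 0.13 and 0.25 in DDX3Yoe cells. Between the AAVS1 groups of the 2 lines they correlated at 0.24, 0.13 and 0.37, and between DDX3Yoe AAVS1 and parental 395 at 0.14, 0.12 and 0.16. Between DDX3Yoe 395 and parental 395 the values were -0.31, 0.02 and -0.20. Between DDX3Yoe 395 and parental AAVS1 they were -0.29, -0.05 and 0.14. Libraries of unlike number were not compared, so whether the numbers pair the libraries was not settled. The fit has no block, and blocked counts stand beside the parental one. Limits from a count of 0 (3 reads) cover counting error only.

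The members, the gene lists and the naming rule were chosen with earlier results of these data known. Named genes were DDX3X and DDX3Y, the 10 genes in each direction with the smallest p among those above the 40th percentile of expression with a proper symbol, since none was called, and 4 members with the smallest p from each list of at least 5 tested genes; some are not reported here. Lists are described by counts and medians, with no set test. Alternatives were other pseudocounts (0.1 and 5), filters (none and 50) and scalings, other moderation, a fold minimum of 1.2, library weights, all 18 libraries, the replicate block, leaving out libraries (for the APOL family chosen after seeing the data), and edgeR 4.0.16 and DESeq2 1.42.0 on the recovered reads.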

Additional observations from a re-analysis of the deposited data

How the results depend on the processing

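The count of genes called in the difference was 0 under every alternative run but 2: it was 1 with no intensity trend (CES5AP1, a pseudogene) and 15 with DESeq2. It stayed 0 with the replicate number as a block, whether 1 effect per number or within each line, and with any library left out. In DDX3Yoe cells the count was 1 with DESeq2. In parental cells it was 265 with no filter, 209 with no trend, 271 with all 18 libraries, 749 and 1770 with the replicate block shared or within each line, 131 with a fold minimum of 1.2, 268 with library weights and 1222 with DESeq2. Leaving out libraries gave parental counts between 1 and 781: without replicate 1, 2 or 3 throughout it was 28, 1 and 34, without both parental libraries of replicate 1, 2 or 3 it was 135, 1 and 131, and without both DDX3Yoe libraries of these numbers 222, 233 and 264. The control-guide comparison could not be fitted with the block within each line. DDX3X, at 0.08, lay between -0.083 and 0.26 with libraries left out and turned to -0.04 without DDX3Yoe 395 replicate 1, -0.083 without replicate 1, -0.07 without both DDX3Yoe libraries of replicate 1 and -0.0011 without both parental libraries of replicate 2. PDIA4, an ER chaperone with 0.36, lay between -0.14 and 0.83 and turned to -0.0036 without parental AAVS1 replicate 3, -0.0012 without replicate 3 and -0.14 without both parental libraries of replicate 3. The parental call of DDX3X was lost with all 18 libraries (limma adjusted p = 0.0800), a fold minimum (0.0552) and without parental 395 replicate 2 (0.0521). It was also lost without replicate 1, 2 or 3 throughout (0.0846, 0.304 and 0.0978) and without both parental libraries of these numbers (0.0549, 0.125 and 0.0509). The fit of all 18 libraries takes its spread in part from the DDX3Xoe libraries that went against their guide labels. Median-centring moved the median of all genes to 0.06. Intervals with a median half-width of 1.07 limit what single genes can show.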
